A study of Homo sapiens with 6 samples.

Results

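Interferons are secreted cytokines that act through paired receptor chains, and the genes described here are 4 interferon ligands (IFNB1, IFNE, IFNG and IL29) and 6 receptor chains (IFNAR1, IFNAR2, IFNGR1, IFNGR2, IL10RB and IL28RA). They were taken from a list of symbols, using the older names that the amplicon panel carries, and all 10 were found among its 20812 amplicons. Expression was measured by Ion AmpliSeq Transcriptome sequencing, a method that counts the reads of 1 short PCR product for each gene's cDNA. The 6 libraries came from MCF10A, a human cell line of mammary epithelium that does not form tumours, as 2 replicates each of untransfected wt cells, of an eGFP control and of GIRK1 cells. The eGFP and GIRK1 cells had both been transfected with a pIRES2eGFP plasmid, selected with G418 and sorted for green fluorescence, and the GIRK1 plasmid also carried the coding sequence of KCNJ3, which encodes the potassium channel subunit GIRK1. No treatment with an interferon is given in the labels, and the series text speaks of 2 overexpressing and 2 control lines where the methods speak of replicates, so it is not settled whether replicates were transfected separately, and p-values measure only the spread between these libraries, which may be technical. In bulk RNA, fewer expressing cells and less RNA per cell cannot be told apart.

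Type I interferons, such as interferon beta (IFNB1) and interferon epsilon (IFNE), bind a receptor built from IFNAR1 and IFNAR2. Interferon gamma (IFNG) binds IFNGR1 and IFNGR2, and the type III interferons, such as interferon lambda 1 (IL29), bind IL28RA together with IL10RB, a chain that is also used by interleukin 10 and its relatives. The receptors carry JAK kinases that phosphorylate STAT proteins. STAT proteins, STAT2 among them, join IRF9 in the complex ISGF3, which switches on antiviral genes, while STAT dimers drive the genes that respond to interferon gamma. Epithelial cells make beta and lambda interferons after sensors of foreign nucleic acid activate IRF and NF-kappaB factors, whereas interferon gamma comes mainly from lymphocytes.

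The library labelled wt replicate 1 stood apart from the other 5 libraries and is shown apart throughout. The SD of its gene-wise log2 ratio to each of them was 2.07 to 2.09 over 9212 genes, against 0.365 between wt replicate 2 and eGFP replicate 2, 0.684 within eGFP and 0.367 within GIRK1. Its 8 luminal markers summed to 13717 RPM, the deposited read count scaled to a fixed library total, against 390 to 493 RPM in the other 5, where KRT19, ESR1, PGR and TFF1 were all at 0. Its 8 basal markers summed to 391 RPM, against 7695 to 14202 RPM, and TP63 was at 0 in all 6 libraries. Of 10 immune markers, the leukocyte marker PTPRC and the T and B cell markers CD3D, CD3E, CD2 and MS4A1 were at 0 in every library. CD14 (7.11 to 21.7 RPM) and CD68 (14.9 to 23.8 RPM) were read in the other 5 libraries. In wt replicate 1 both were at 0, and NKG7 had 3 reads. KCNJ3 was read 2408 and 3677 times in the GIRK1 libraries and 0 times in eGFP and in wt replicate 2, so that GIRK1 was at least 651-fold above eGFP (mean RPM against the floor of 3 reads per library), but it was read 48 times in wt replicate 1, against its label. Library totals ran from 2506120 reads (wt replicate 1) to 16040556 reads (wt replicate 2), and the detection floor of 3 reads equalled 1.20 RPM in wt replicate 1 and 0.187 to 0.585 RPM in the other 5.

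The amplicons that carried the counts are shown first, because they decide what a read of each gene means. The panel gives positions on RefSeq transcripts, and a stretch was accepted here where the GENCODE 29 (GRCh38) transcript paired with that accession held the same number of G and C bases between those positions. That held for 8994 of 19775 amplicons (45.5%), against 12.1% when positions were moved by 20 bases, so an accepted stretch is likely, not certain, to be the amplicon itself. It held for 6 of the 10 genes, and all 6 stretches lay wholly in coding sequence. Lower case and capitals mark the first and the second exon of each stretch.
IFNGR1: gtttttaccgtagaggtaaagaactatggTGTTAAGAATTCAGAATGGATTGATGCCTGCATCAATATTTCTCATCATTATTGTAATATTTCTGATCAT
IFNGR2: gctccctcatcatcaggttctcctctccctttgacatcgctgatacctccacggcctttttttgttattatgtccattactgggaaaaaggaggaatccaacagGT
IL10RB: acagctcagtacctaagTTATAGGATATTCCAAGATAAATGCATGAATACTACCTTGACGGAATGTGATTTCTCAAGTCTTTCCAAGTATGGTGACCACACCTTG
IFNE: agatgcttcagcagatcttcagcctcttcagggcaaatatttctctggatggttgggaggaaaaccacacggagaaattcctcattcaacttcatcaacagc
IFNG: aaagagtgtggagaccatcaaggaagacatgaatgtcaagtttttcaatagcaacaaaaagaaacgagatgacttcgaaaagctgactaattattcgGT
IL29: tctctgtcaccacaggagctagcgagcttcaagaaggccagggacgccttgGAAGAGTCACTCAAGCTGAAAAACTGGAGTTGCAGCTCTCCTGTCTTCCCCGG
The IFNGR1 stretch joins exons 2 and 3 of 7 (chr6:137206239-137206991, minus strand), the IFNGR2 stretch exons 4 and 5 of 7 (chr21:33426929-33432178, plus strand) and the IL10RB stretch exons 2 and 3 of 7 (chr21:33268501-33276683, plus strand). Likewise, the IFNG stretch joins exons 3 and 4 of 4 (chr12:68155486-68158009, minus strand) and the IL29 stretch exons 1 and 2 of 5 (chr19:39296542-39296857, plus strand). The IFNE stretch lies in its 1 exon (chr9:21481346-21481447, minus strand), so that, unlike the 5 other accepted stretches, it crosses no exon junction. The transcript paired with IFNB1, whose stretch was not accepted, also has 1 exon, so its amplicon crosses none either. Sequence on both sides of a junction can set spliced RNA apart from genomic DNA. In the IFNGR2 and IFNG stretches only the final GT lies past the junction, so the printed bases say little on this. The IL10RB stretch is also held by the annotated readthrough transcript AP000295.1. The closest ungapped match of the IL29 stretch in IL28A (IFNL2) and IL28B (IFNL3) agreed at 76 of 104 bases (73.1%).

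Levels of different genes cannot be ranked in these data, because each has its own amplicon and amplicons differ in yield, so each gene was compared only with itself across libraries. Of the 10 genes, 5 reached 3 reads in all 6 libraries (IFNAR1, IFNAR2, IFNGR1, IFNGR2 and IL10RB), and the same 5 reached 10 reads in all 6. IFNB1, IFNG and IL28RA stayed under 3 reads in every library. Those 5 receptors and IFNE passed the filter on low counts and were tested, and IL28RA, IFNB1, IFNG and IL29 were not. No member passed an adjusted p of 0.05 (edgeR, Benjamini-Hochberg) in GIRK1 against eGFP, where 188 of 11779 genes did (1.6%), or in GIRK1 against wt replicate 2, where 27 did (0.229%). At an unadjusted p under 0.05, 1 of the 6 tested members passed against eGFP (18.8% of all genes did), and 0 passed against wt replicate 2 (7.38% of all genes did). Both comparisons use the same GIRK1 libraries. Against wt replicate 2 there is 1 control library, whose spread was assumed to be like that of the other groups.

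**Figure D1:**
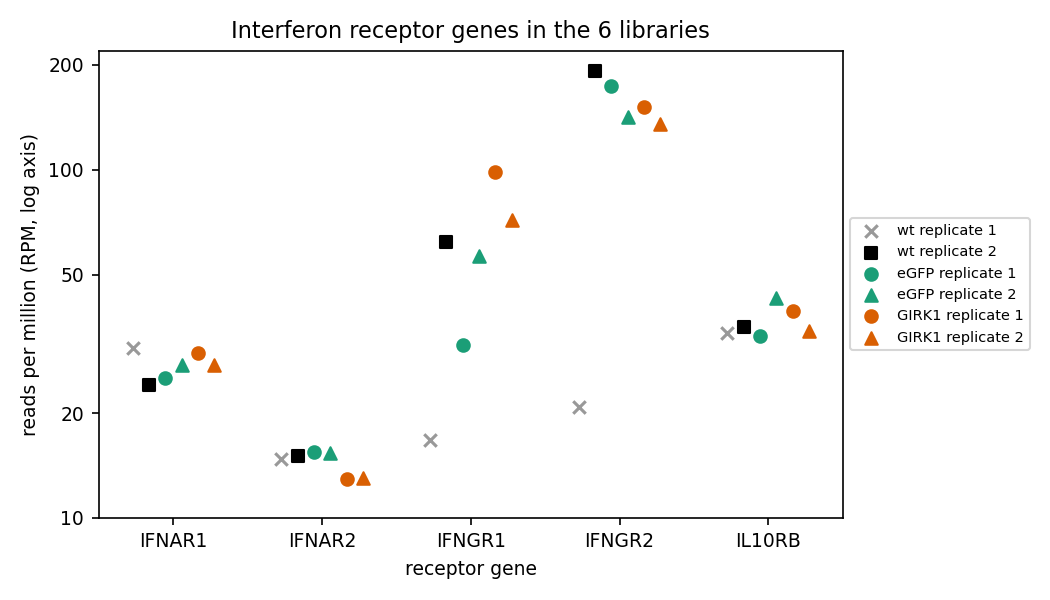
RPM on a log axis of the 5 receptor genes that every library detected, 1 point per library, coloured by line. The GIRK1 points of IFNGR1 (98.3 and 71.7 RPM) lie above the eGFP and wt points, those of IFNAR2 (both 13.0 RPM) lie below them, and wt replicate 1 (grey crosses) is far below the other 5 libraries for IFNGR1 and IFNGR2.

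IFNAR1, the chain of the type I receptor that carries TYK2, was read at 24.0 RPM in wt replicate 2, 25.2 and 27.5 RPM in eGFP replicates 1 and 2 and 29.8 and 27.4 RPM in GIRK1 replicates 1 and 2, with 129 to 385 reads behind each value. The 5 values span a ratio of 1.24 between the highest and the lowest, and wt replicate 1 read 30.7 RPM from 77 reads. The mean was 28.6 ± 1.66 RPM in GIRK1 (SD, n = 2) and 26.3 ± 1.62 RPM in eGFP (SD, n = 2), a log2 difference of 0.08 ± 0.22 (SE) with a 95% interval of -0.45 to 0.61 (edgeR, adjusted p = 0.864). Both GIRK1 values lay above the 3 controls after TMM scaling, but by RPM GIRK1 replicate 2 and eGFP replicate 2 were level, so the order depends on the scaling. A 2-fold change in either direction lies outside the interval.

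IFNAR2, the chain of the same receptor that carries JAK1, had close replicate values. The SD was 0.0479 RPM in eGFP and 0.0589 RPM in GIRK1 (n = 2 each). IFNAR2 RPM was 15.1 in wt replicate 2, 15.4 and 15.3 in eGFP and 13.0 in both GIRK1 libraries, from 79 to 242 reads each. All 3 controls therefore lay above both GIRK1 libraries, but the 95% counting intervals (exact binomial, counting error only) overlapped. They ran from 12.2 to 19.2 RPM in eGFP replicate 1 and from 10.9 to 15.3 RPM in GIRK1 replicate 1. Counting error was thus far wider than these SDs. Of all genes tested, 20% had both GIRK1 libraries below all 3 controls, and 41.4% did not overlap them in one direction or the other. The log2 difference from eGFP was -0.28 ± 0.25 (SE; 95% interval -0.87 to 0.32), which did not pass the test (edgeR, adjusted p = 0.579). wt replicate 1 read 14.8 RPM from 37 reads, near the controls.

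IFNGR1, the ligand-binding chain of the interferon gamma receptor, had the largest log2 difference from eGFP of the 6 members tested. It was read at 61.9 RPM in wt replicate 2 (993 reads), 31.4 and 56.5 RPM in eGFP (161 and 578 reads) and 98.3 and 71.7 RPM in GIRK1 (1092 and 742 reads). Both GIRK1 libraries lay above all 3 controls, as they did for 21.4% of all genes tested, and the eGFP replicates differed from each other by a ratio of 1.80. Mean RPM was 85.0 ± 18.8 in GIRK1 and 43.9 ± 17.7 in eGFP (SD, n = 2 each), a ratio of 1.93. The fitted fold was 1.89, with a 95% interval of 1.15 to 3.09. The log2 difference of 0.92 ± 0.30 (SE) had an unadjusted p of 0.0187 and did not pass after adjustment (edgeR, Benjamini-Hochberg adjusted p = 0.177). Without eGFP replicate 2 the log2 difference was 1.33 and passed (edgeR, adjusted p = 0.00275), in a fit that called 2997 genes, and without eGFP replicate 1 it was 0.61 (edgeR, adjusted p = 0.107). Against wt replicate 2 the log2 difference was 0.48 ± 0.37 (SE; 95% interval -0.39 to 1.35; edgeR, adjusted p = 0.855), and 0.25 without GIRK1 replicate 1. In wt replicate 1 it was read at 16.8 RPM (42 reads), below the other 5 libraries.

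IFNGR2, the signalling chain of the same receptor that carries JAK2, overlapped between the groups. Its RPM was 192 in wt replicate 2, 173 and 141.9 in eGFP and 152 and 135 in GIRK1, from 889 to 3079 reads, so the GIRK1 and eGFP values interleaved. The log2 difference from eGFP was -0.18 ± 0.23 (SE; 95% interval -0.73 to 0.36; edgeR, adjusted p = 0.694). Without eGFP replicate 1 it was 0.03, so its sign rests on that library. wt replicate 1 read 20.7 RPM (52 reads), which is 6.52-fold below the lowest of the other 5 libraries.

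IL10RB, the shared chain of the lambda interferon and interleukin 10 receptors, was read at 35.3 RPM in wt replicate 2, 33.4 and 42.9 RPM in eGFP and 39.3 and 34.4 RPM in GIRK1, from 171 to 566 reads. The groups overlapped, and wt replicate 1 (33.9 RPM, 85 reads) lay within them. The log2 difference was -0.09 ± 0.23 (SE; 95% interval -0.62 to 0.45; edgeR, adjusted p = 0.856), and it was 0.04 without eGFP replicate 2. Its partner IL28RA, the chain that is specific to the lambda interferons, had 2 reads in wt replicate 2, 2 and 1 in eGFP, and 0 in both GIRK1 libraries and in wt replicate 1. The floor of 3 reads stands at 0.270 and 0.290 RPM in the GIRK1 libraries, and the eGFP values were 0.390 and 0.0977 RPM, so a difference was not detectable at this depth. With no filter on low counts IL28RA had an adjusted p of 0.4996 (edgeR).

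The genes of 4 of the 6 receptor chains lie side by side on 21q22.11, in the order IFNAR2, IL10RB, IFNAR1 and IFNGR2, all on the plus strand within 249 kb (chr21:33229901-33265675, chr21:33266358-33310187, chr21:33324477-33359862 and chr21:33402896-33479348). Their log2 differences from eGFP ran from -0.28 to 0.08. IFNGR1 lies apart at chr6:137197484-137219449 and IL28RA at chr1:24154157-24187959, both on the minus strand. Of 20 neighbouring genes on 21q22.11, 13 were tested and 0 were called in either direction. Of the 13, 3 had an unadjusted p under 0.05 (edgeR), beside 18.8% of all genes tested. The median log2 difference of the 13 was -0.11, beside 0.02 over all genes tested. The lowest unadjusted p among them was that of C21orf59, with a log2 difference of 0.82 (edgeR, adjusted p = 0.153), followed by MRPS6, a mitochondrial ribosomal protein gene, at -0.80 (edgeR, adjusted p = 0.226). Of the nearest measured neighbours, OLIG1 had 0 reads in every library, and TMEM50B, which overlaps the end of IFNGR2 on the opposite strand, differed by -0.11 (edgeR, adjusted p = 0.870).

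**Figure D2:**
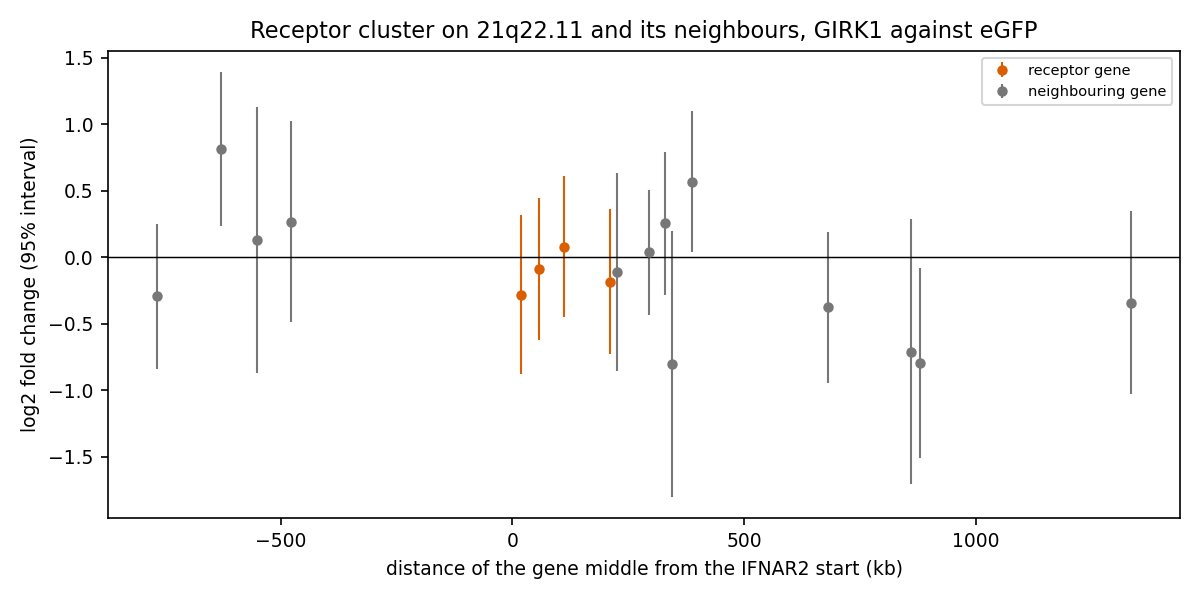
Log2 fold change of GIRK1 against eGFP (point) with its 95% confidence interval (bar), by the distance in kb of each gene's middle from the start of IFNAR2, for the 4 clustered receptor genes (orange) and the 13 neighbouring genes tested (grey). All 4 receptor intervals include 0, and the neighbours lie on both sides of it.

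Among the ligands, IFNE was the only one with 3 reads or more in each of the 5 libraries of the fit. Interferon epsilon is known as an epithelial interferon of the female reproductive tract. Reads numbered 7 in wt replicate 2, 5 and 3 in eGFP, 5 and 8 in GIRK1 and 0 in wt replicate 1, or 0.436, 0.975 and 0.293, 0.450 and 0.773 RPM in the 5 libraries of the fit. The groups overlapped, and the log2 difference from eGFP was 0.07 ± 0.95 (SE) with a 95% interval of -2.17 to 2.31 (edgeR, adjusted p = 0.975), or 0.222-fold to 4.96-fold. In wt replicate 1 the floor of 1.20 RPM lies above all of these levels, so the 0 there is not evidence of a lower level.

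IFNB1, the interferon that most cell types make first when a virus is sensed, had 2 reads in each GIRK1 library, 1 in wt replicate 2 and 0 in eGFP and in wt replicate 1. All values were under the floor. IL29 had 2 and 5 reads in GIRK1 (0.180 and 0.483 RPM) and 0 in the 4 other libraries. The 5 reads of GIRK1 replicate 2 passed the floor of that library, with a 95% counting interval of 0.157 to 1.13 RPM (exact binomial). The floor of 3 reads stands at 0.585 and 0.293 RPM in the eGFP libraries, so no fold is given. The interval covers counting error only. With no filter, IL29 had an unadjusted p of 0.0999 and an adjusted p of 0.408, and IFNB1 an adjusted p of 0.562 (edgeR). IFNG had 0 reads in all 6 libraries, where the floor of 3 reads is at its lowest, 0.187 RPM, in the deepest of them.

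The 17 other interferon ligands on the panel, mainly the IFNA family, were no better covered. None passed the filter, 9 had no read in any library, and 3 reached the floor once each: IFNA16 with 3 reads in wt replicate 2, IFNA2 with 3 reads in GIRK1 replicate 1 and IL28A, which encodes interferon lambda 2, with 4 reads in GIRK1 replicate 2. Summed over all 21 ligand amplicons, the reads were 12 in wt replicate 2, 6 and 3 in eGFP, 15 and 19 in GIRK1 and 0 in wt replicate 1. As RPM all 21 were at 1.35 (95% counting interval 0.756 to 2.23) and 1.84 (1.11 to 2.87) in GIRK1. In eGFP they were at 1.17 (0.429 to 2.55) and 0.293 (0.0605 to 0.857), and in wt replicate 2 at 0.748 (0.387 to 1.31). Leaving out IFNE, the other 20 summed to 5, to 1 and 0, to 10 and 11 and to 0 reads. As RPM these 20 were at 0.900 (95% counting interval 0.432 to 1.66) and 1.06 (0.531 to 1.90) in GIRK1, at 0.195 (0.00494 to 1.09) and 0 (floor of 3 reads 0.293) in eGFP and at 0.312 (0.101 to 0.727) in wt replicate 2. Both GIRK1 sums of these 20 were above the 3 controls, with counting intervals that overlap those of eGFP replicate 1 and wt replicate 2. The summing was chosen after the values were seen, and no test was run on it. IFNA genes are near copies of each other, so reads may be split among them. IFNB1 has no exon junction, and the amplicons of the 17 other ligands were not placed on exons. Reads of genomic DNA were therefore not set apart in these sums.

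**Figure D3:**
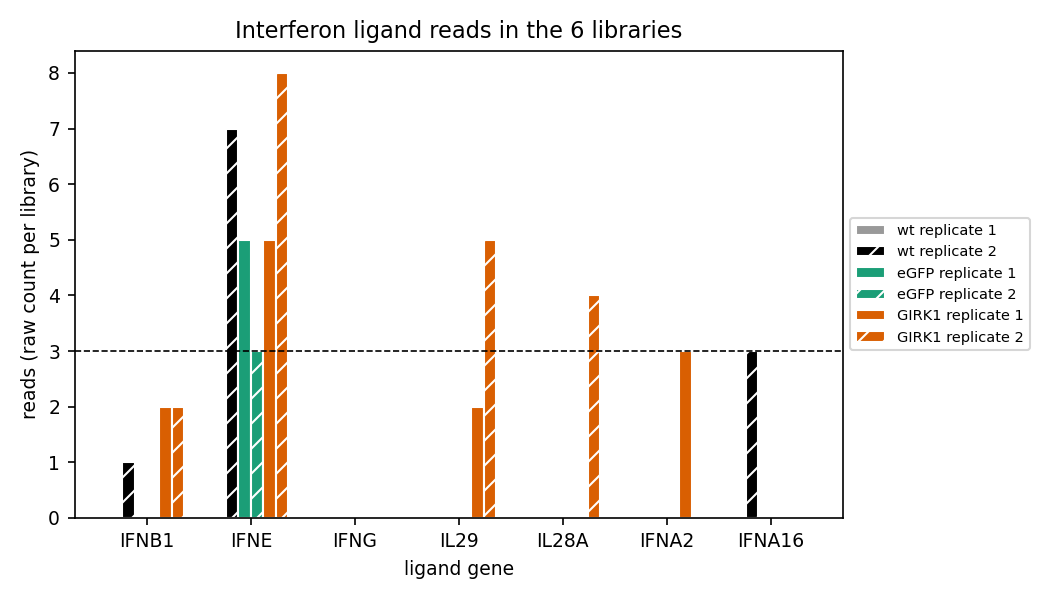
Raw reads per library of the 4 member ligands and of the 3 other ligands that reached 3 reads in any library, with the detection floor of 3 reads as a dashed line. IFNE passes the floor or reaches it in 5 libraries, IL29 only in GIRK1 replicate 2 with 5 reads, IFNB1 never, and IFNG has no read.

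Promoter sequence is shown for the ligands IFNB1 and IL29, for IFIT1, an ISGF3 target, and for the receptor gene IFNAR1. The windows are the 250 bases before the RefSeq start (GRCh38.p14), which was given for 9 of the 10 genes (not for IFNAR2), and are printed along the gene's strand. Capitals mark matches, on either strand, to AANNGAAA (an IRF core), GAAANNGAAA (an interferon-stimulated response element, every match of which also holds the IRF core) or GGGAAANNCC (an NF-kappaB type motif).
IFNB1, chr9:21077943-21078192, minus strand: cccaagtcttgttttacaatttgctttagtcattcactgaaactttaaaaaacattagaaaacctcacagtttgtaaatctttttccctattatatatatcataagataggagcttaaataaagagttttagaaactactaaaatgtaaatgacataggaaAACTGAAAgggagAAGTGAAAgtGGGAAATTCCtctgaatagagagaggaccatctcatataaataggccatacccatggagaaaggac
IL29, chr19:39296157-39296406, plus strand: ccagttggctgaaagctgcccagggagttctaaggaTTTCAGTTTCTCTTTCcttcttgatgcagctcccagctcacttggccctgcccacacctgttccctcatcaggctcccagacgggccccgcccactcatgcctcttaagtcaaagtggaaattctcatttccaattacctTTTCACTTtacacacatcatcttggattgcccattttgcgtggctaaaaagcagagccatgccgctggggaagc
IFIT1, chr10:89392373-89392622, plus strand: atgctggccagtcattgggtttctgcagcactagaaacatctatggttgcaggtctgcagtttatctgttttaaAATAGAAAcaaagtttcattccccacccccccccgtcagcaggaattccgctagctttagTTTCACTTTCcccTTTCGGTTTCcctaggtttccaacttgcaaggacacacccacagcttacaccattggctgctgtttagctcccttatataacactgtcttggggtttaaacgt
IFNAR1, chr21:33324145-33324394, plus strand: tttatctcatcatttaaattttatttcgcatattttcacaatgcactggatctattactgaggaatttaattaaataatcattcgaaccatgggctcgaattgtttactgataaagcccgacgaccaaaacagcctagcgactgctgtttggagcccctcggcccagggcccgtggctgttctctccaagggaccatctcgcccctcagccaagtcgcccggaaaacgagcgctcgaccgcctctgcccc
The IFNB1 window held 2 IRF cores and 1 NF-kappaB type match. The IL29 window held 3 IRF cores, of which 2 were part of response elements, and the IFIT1 window 3 and 2 likewise. The IFNAR1 window held none of the motifs. Nor did the window of IFNE, which like IFNB1 and IL29 was read in both GIRK1 libraries. That of IFNG, which had no read, held 1 IRF core. An IRF core was in 3 of 4 member ligand windows, 13 of 14 windows of other ligands, 16 of 17 of ISGF3 targets and 0 of 5 of the member receptors, against 20.3% of all 35116 windows. The response element was in 1 of 4, 4 of 14, 12 of 17 and 0 of 5 windows, against 3.02% of all. The NF-kappaB type motif was in 1 of 4, 2 of 14, 1 of 17 and 1 of 5 windows (that of IFNGR2), against 1.73%. Of the 5 receptor windows, those of IFNGR1, IFNGR2 and IL28RA lie inside the GENCODE gene models, downstream of the first annotated start, so the receptor counts rest on displaced windows for these 3. These motifs were chosen after the values were seen, and a match is a match of letters, not a bound site.

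Downstream of the receptors JAK1, JAK2 and TYK2 did not pass the test, and STAT2 and IRF9 did. Of the 7 receptor kinases and STATs tested, 3 rose in GIRK1 against eGFP and 0 fell (edgeR, adjusted p under 0.05; 0.756% of all genes rose and 0.84% fell), with a median log2 difference of 0.66. STAT2, a part of ISGF3, went from 30.0 and 30.7 RPM in eGFP to 117 and 142.8 RPM in GIRK1, a log2 difference of 2.06 ± 0.22 (edgeR, adjusted p = 0.0103), with 28.2 RPM in wt replicate 2. IRF9, the DNA-binding part of the complex, went from 15.6 and 13.0 to 110 and 151 RPM, a log2 difference of 3.16 ± 0.28 (edgeR, adjusted p = 0.00471). IRF9 also passed against wt replicate 2 (edgeR, adjusted p = 0.0302), and STAT2 had an adjusted p of 0.0502 (edgeR). For both, the GIRK1 libraries lay above the 3 controls, as they did for 5 of the 7 in this list and for 21.4% of all genes tested. JAK1, which was not called, is among these 5. Log2 differences of the kinases, which did not pass, were 0.66 for JAK1 (edgeR, adjusted p = 0.162), 0.21 for JAK2 (0.817) and -0.58 for TYK2 (0.342).

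**Figure D4:**
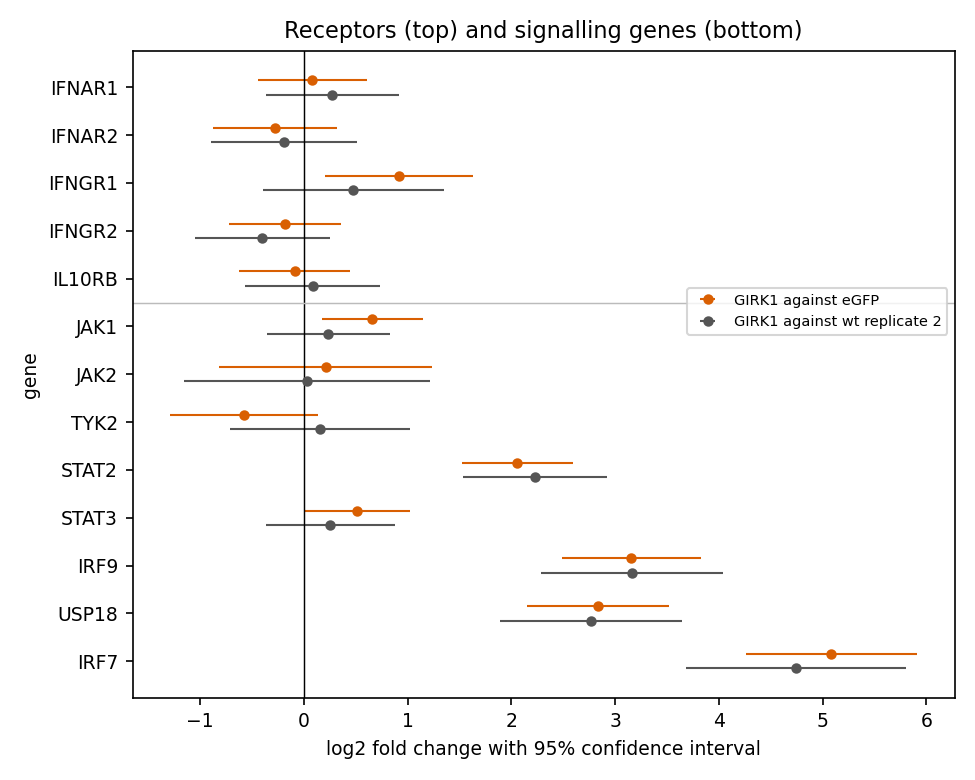
Log2 fold change (point) and 95% confidence interval (bar) of GIRK1 against eGFP (orange) and against wt replicate 2 (grey) for the 5 receptor genes (top) and 8 signalling genes (bottom). STAT2, IRF9, USP18 and IRF7 lie at 2.06 or above in both, IFNGR1 at 0.92 and 0.48, and the other 4 receptor genes between -0.40 and 0.28.

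USP18, which displaces JAK1 from IFNAR2 and so dampens type I signalling, rose from 10.1 and 7.91 RPM in eGFP to 58.2 and 73.3 RPM in GIRK1, a log2 difference of 2.84 ± 0.29 (edgeR, adjusted p = 0.00764), with 9.79 RPM in wt replicate 2. It was the only one of 10 negative regulators and genes of receptor turnover that passed, and their median log2 difference was 0.14. Its adjusted p against wt replicate 2 was 0.0502 (edgeR), and 0 of the 10 were called. Among 13 tested genes that lead to ligand production, 4 rose and 0 fell against eGFP, and the median was -0.14. The 4 were IRF7, the factor that amplifies IFNA transcription (from 1.95 and 4.01 to 98.3 and 119 RPM, log2 difference 5.08 ± 0.35), and the RNA sensors DDX58 (RIG-I; 3.33 ± 0.28), IFIH1 (MDA5; 2.62 ± 0.37) and TLR3 (2.32 ± 0.39), with adjusted p of 0.00210, 0.00372, 0.0261 and 0.0451 (edgeR). IRF7 and DDX58 also passed against wt replicate 2, and IFIH1 (edgeR, adjusted p = 0.162) and TLR3 (edgeR, adjusted p = 0.359) did not. Without GIRK1 replicate 1 and without GIRK1 replicate 2, 3 of the 4 were called, and TLR3 was not. wt replicate 2 read 4.11 RPM for IRF7, close to eGFP, and wt replicate 1 read 15.2 RPM.

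Of 20 tested ISGF3 targets, genes that this complex is known to switch on, 16 rose in GIRK1 against eGFP and 0 fell, with a median log2 difference of 5.25. All 20 lay above the 3 controls in both GIRK1 libraries (21.4% of all genes did). XAF1, MX2 and CMPK2 had at most 1 read in any of these controls and passed the filter only through their GIRK1 reads. For these genes the place above the controls was fixed by the filter. Against wt replicate 2, 10 rose and 0 fell (0.195% of all genes rose and 0.034% fell). For 2 of the 20, XAF1 and MX2, both eGFP libraries were at 0, and with these set to the bound that the floor of 3 reads per library gives, the median was 4.43. By the rule for named genes the examples are IFI6, OAS2, IFIT1 and CMPK2. IFI6, a regulator of mitochondrial apoptosis, went from 35.9 and 15.6 RPM in eGFP to 6613 and 9858 RPM in GIRK1 (log2 difference 8.28 ± 0.58; edgeR, adjusted p = 0.00210). OAS2, which makes the oligoadenylate that activates RNase L, went from 0.780 and 0.293 to 82.5 and 108 RPM (7.62 ± 0.45; adjusted p = 0.00159), and IFIT1, which binds viral RNA, from 2.34 and 1.56 to 251 and 359 RPM (7.31 ± 0.39; adjusted p = 0.00159). CMPK2, a mitochondrial nucleotide kinase, was at 0 and 0.0977 RPM in eGFP (0 and 1 reads) and at 18.4 and 14.0 RPM in GIRK1 (edgeR, adjusted p = 0.00374). These targets had been chosen with earlier results of these data known, so their direction is not independent evidence.

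Of 16 listed genes that respond mainly to interferon gamma, 9 were tested, 1 rose and 0 fell, with a median log2 difference of 0.95 (0.92 with 2 genes at their bound). At an unadjusted p under 0.05 (edgeR) there were 7 of the 9, beside 18.8% of all genes tested. Of these 7, ICAM1 was lower in GIRK1, with a log2 difference of -1.44, and the others were higher. Both GIRK1 libraries lay above the 3 controls for 6 of the 9, beside 21.4% of all genes tested. GBP5 and HLA-DPA1, with 0 reads in both eGFP libraries, count in these 6 and in the 7 above. Both passed the filter only through their GIRK1 reads, so their place above eGFP was fixed by it. Without eGFP replicate 1, 4 rose, and without eGFP replicate 2, 3 rose and 1 fell. None was called against wt replicate 2. The difference between the 2 lists was not tested. GBP1, a guanylate-binding protein of antimicrobial defence, was the 1 that rose, from 10.7 and 7.62 RPM to 38.5 and 49.9 RPM (log2 difference 2.24 ± 0.31; edgeR, adjusted p = 0.0250).

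**Figure D5:**
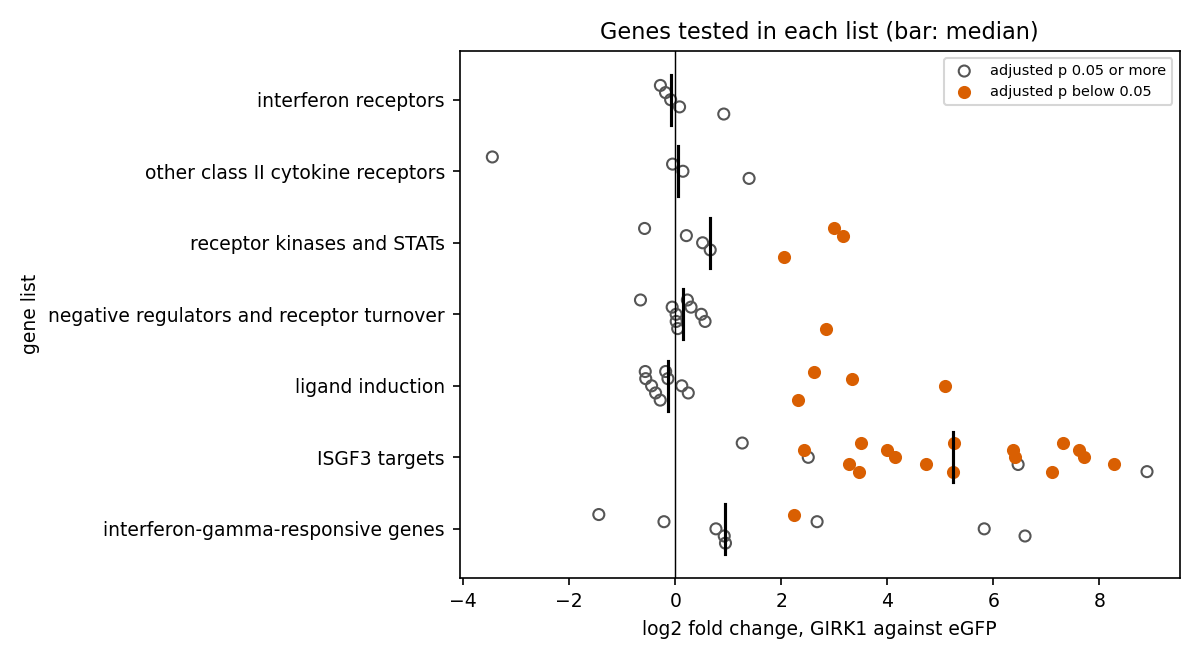
Log2 fold change of GIRK1 against eGFP for each gene tested in 7 lists, filled where the adjusted p was below 0.05, with the list's median as a bar. Of the 5 receptor genes, 4 lie between -0.28 and 0.08 and IFNGR1 at 0.92, while the 20 ISGF3 targets are all above 0 (median 5.25) and 16 of them are filled. XAF1, MX2 and CMPK2 in that list, and GBP5 and HLA-DPA1 in the last list, passed the filter only through their GIRK1 reads.

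With wt replicate 1 entered beside wt replicate 2 as 1 group, the spread within that group enters the fit, and 0 genes were called against eGFP (606 had an unadjusted p under 0.05), so that 0 of 19 ISGF3 targets and 0 of 7 kinases and STATs were called, with medians of 5.21 and 0.67. With wt replicate 1 as a group of its own, 188 genes were called, and the lists had 16 of 20 and 3 of 7. Leaving out each of the 4 eGFP and GIRK1 libraries in turn gave 16 to 19 called ISGF3 targets, and 3 to 5 kinases and STATs that rose, with 1 that fell without eGFP replicate 2, where JAK1 and TYK2 were called.

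The other receptors of the same class II cytokine family gave no call among 4 tested. The largest difference was that of F3 (tissue factor), which starts blood coagulation, at 581 and 138.8 RPM in eGFP, 81.2 RPM in wt replicate 2 and 34.0 and 35.3 RPM in GIRK1, a log2 difference of -3.45 ± 0.66 (edgeR, adjusted p = 0.0612). Both GIRK1 values were below the 3 controls, and it passed the test with the replicate number as a block, without eGFP replicate 1, without eGFP replicate 2 and without either GIRK1 replicate. IL20RA, a receptor chain for interleukins 20 and 24, differed by 1.39 on the log2 scale (edgeR, adjusted p = 0.481). Of the interleukin 10 family ligands, which share IL10RB or its relatives, only IL24 was tested, with 1.37 and 7.62 RPM in eGFP, 2.24 RPM in wt replicate 2 and 0.270 and 0.483 RPM in GIRK1 (log2 difference -3.62 ± 0.90; edgeR, adjusted p = 0.109). It was called lower with the replicate block and without eGFP replicate 1.

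The rule of the study's methods asks for means at least 2-fold apart, with a coefficient of variation under 0.7 in each group. By it, 8.79% of 14893 genes with a read in either group differed between GIRK1 and eGFP (4.21% higher and 4.58% lower in GIRK1). Of the 6 interferon ligand and receptor genes with a read in both groups, 0 did. A call needs reads in both groups, so the 8.79% rests on a wider base than the 6. IL28RA, IFNB1, IFNG and IL29 had no read in one group or in both and could not be called. IFNGR1, at 1.93-fold by mean RPM, was just under that limit.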

How the data were processed

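RNA from 6 MCF10A libraries was sequenced as Ion AmpliSeq Transcriptome amplicons on an Ion S5 XL, and the authors mapped the reads with the Ion Torrent AmpliSeq RNA workflow to a transcript reference of the panel. The deposited counts are whole reads per amplicon, not normalized, and the deposited RPM is each count scaled to the library total. The other deposited columns (transcript positions, GC bases and, per amplicon, overlaps) served to place amplicons, and deposited forward and reverse covering reads served as 1 alternative. Control rows for spiked RNA held no read in any library. Groups and replicate numbers came from the sample titles. The file names carry 1 tag for the GIRK1 libraries and another for the other 4, and if it marks a sequencing run, then the run cannot be told apart from the condition.

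Counts of 5 libraries (wt replicate 1 left out) went into edgeR 4.0.16 under R 4.3.3, with TMM scaling, filterByExpr (11779 genes kept), glmQLFTest on group means with 2 residual degrees of freedom, and Benjamini-Hochberg adjustment over all genes tested with a threshold of 0.05. Standard errors were derived from the F value, and intervals cover 95%. Counting intervals are exact binomial (Clopper-Pearson) intervals and, like the floor of 3 reads, cover counting error only. In counts simulated for GIRK1 against eGFP over these 11779 genes, 32.8% of 67 genes changed 2-fold were called. Of those changed 4-fold, 86.6% of 67 were called, and of those changed 8-fold, 95.5% of 66, with 7 unchanged genes called. These shares are taken over many genes together, so they do not give the chance of a call for IFNGR1 itself.

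The members and lists (other ligands, other class II receptors, interleukin 10 family ligands, kinases and STATs, negative regulators, ligand induction, ISGF3 targets, interferon gamma genes, neighbours on 21q22.11 and 9p21, and basal, luminal and immune markers) were written from general knowledge with earlier results of these data known. The genes named are all 10 members, up to 4 called genes of each list with the largest differences, or the 2 with the lowest p where none was called, the nearest neighbours, KCNJ3, and the 3 genes most like the receptor with the lowest p. Others are named where a count or a median of a list needs them. IFNL4, SOCS1 and TICAM1 were not matched on the panel. Alternatives were other scalings, filters, DESeq2 1.42.0, covering reads, all 6 libraries, only the groups compared, pooled controls, a replicate block and leaving out each replicate. The fit with wt replicate 1 as its own group and the list counts under the alternatives were added after the data were seen. No protein sequence was used. Some genes of these lists enter the counts but are not reported here by name.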

Additional observations from a re-analysis of the deposited data

Results flagged for a closer look

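wt replicate 1, which enters only alternative fits, held signal above the 3 control libraries in values outside the interferon genes. KCNJ3 was read at 19.2 RPM there and at 0 in eGFP and in wt replicate 2. The 8 luminal markers summed to 13717 RPM, against 390 to 493 RPM in the other 5 libraries. None of the 10 interferon ligand and receptor genes had a counting interval in wt replicate 1 that lay above all 3 controls. IFNGR1 and IFNGR2 lay below them, at 16.8 and 20.7 RPM. Groups of 2 libraries are too small for a check of single samples within a group.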

How the results depend on the processing

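In 17 alternatives against eGFP, IFNAR1 (0.04 to 0.14) and IFNAR2 (-0.35 to -0.22) kept their log2 sign and were never called, and IFNGR1 (0.61 to 1.33) kept its sign and was called once, without eGFP replicate 2. IFNGR2 changed sign once (0.03 without eGFP replicate 1), IL10RB once (0.04 without eGFP replicate 2) and IFNE in 4 of 11. Among the 17, only the groups compared and leaving out wt replicate 2 are the same fit, entered under both names. Against wt replicate 2, IL10RB alone changed sign (-0.03 with 3 pooled controls), and no member was called. Of 188 genes called against eGFP and 27 against wt replicate 2, no filter gave 865 and 133, at least 10 reads in every library 107 and 16, and DESeq2 677 and 126. With all 6 libraries 0 were called against eGFP, with 606 at an unadjusted p under 0.05. Against wt replicate 2, only the groups compared gave 439. Pooling the 3 controls makes 1 contrast in place of both, with 91 genes higher and 47 lower in GIRK1, against 89 and 99 (eGFP) and 23 and 4 (wt replicate 2). Leaving out 1 library gave 158 to 2997 calls against eGFP (973 without eGFP replicate 1, 2997 without eGFP replicate 2) and 34 to 576 against wt replicate 2 (576 and 449 without those, 64 without GIRK1 replicate 1). The fold rule called 1309 genes, 3157 with a fold of 1.5 and 2501 with no limit on the coefficient. Apart from these changes of the fit, the causes were not tested.

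The replicate numbers are not said to pair the libraries, and the replicate differences of eGFP and GIRK1 had r = 0.199 across 9212 genes, which are not independent. The replicate block gave 549 calls against eGFP and 77 against wt replicate 2, with no member called. Upper-quartile scaling moved the calls against eGFP from 89 higher and 99 lower to 87 and 72, and the replicate block to 196 and 353. Depth limits IL28RA and the ligands, where a few reads decide a value.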

Other observations

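IFNB1 and IFNE lie on 9p21 (chr9:21077105-21077963 and chr9:21480839-21482313, both on the minus strand, GRCh38) among genes of which several had no read. MTAP and the tumour suppressor gene CDKN2A, on the far side of IFNE from IFNB1, had 0 reads in all 6 libraries, and CDKN2B had 0 in 5 and 4.39 RPM in wt replicate 1. PTPLAD2, the nearest measured gene outside the interferon family on the IFNB1 side, also had 0 reads throughout. KLHL9, which lies between IFNB1 and IFNE, was read at 15.3 RPM in wt replicate 2, 13.3 and 13.8 RPM in eGFP and 19.5 and 21.6 RPM in GIRK1. Of the 9 neighbours on 9p21, 4 were tested and 0 were called. The lowest unadjusted p were those of KLHL9 (log2 difference 0.56; edgeR, adjusted p = 0.277) and MLLT3 (-1.66; edgeR, adjusted p = 0.319).

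The genes whose levels over the 5 libraries were most like those of IFNGR1, among 9287 genes whose mean reached 50 reads, were STOM, ZNF252P and KPNA5, with a largest difference between centred log2 values of 0.05, 0.11 and 0.12. STOM, which encodes the membrane protein stomatin, was read at 365 RPM in wt replicate 2, 178 and 342 RPM in eGFP and 557 and 424 RPM in GIRK1, so that eGFP replicate 1 was its lowest library, as it was for IFNGR1. Among 7 tested basal markers 1 was called higher and 0 were called lower against eGFP. KRT17, a basal keratin, went from 853 and 952 RPM to 3800 and 4513 RPM (log2 difference 2.17; edgeR, adjusted p = 0.00764). It was at 1570 RPM in wt replicate 2, a log2 difference of 1.43. The 7 went both ways, with 4 log2 differences above 0 and a median of 0.10. KRT5, KRT14 and ITGB4 differed by -1.08, -0.59 and -0.59 (edgeR, adjusted p = 0.160, 0.359 and 0.292). None of 4 tested luminal and 2 tested immune markers was called, and the summed immune markers, read almost wholly from the macrophage-associated genes CD14 and CD68, were 22.0 RPM in wt replicate 2, 45.4 and 44.1 RPM in eGFP and 34.9 and 30.8 RPM in GIRK1.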
